A study of Mus musculus with 6 samples.

Results

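The 9 genes Pdha1, Cs, Idh3a, Idh3b, Idh3g, Ogdh, Suclg1, Fh1 and Mdh2 encode enzymes of the tricarboxylic acid (TCA) cycle and the E1 alpha subunit of pyruvate dehydrogenase, and were picked by symbol from the 17975 genes of the expression table. RNA was sequenced from liver tissue of 3 WT mice and 3 Hom mice, a piece of unsorted tissue from each. WT mice are the wild-type group. Hom mice carry floxed Nek7 on both alleles together with Alb-Cre, in which the albumin promoter drives Cre recombinase. The study describes the knockout as specific to hepatocytes, and Nek7 in the other liver cells was not measured here. The age and sex of these 6 mice in particular, and whether the WT mice carried floxed alleles or Cre, are not given in the sources used here. The comparison asks how the transcripts of these enzymes differ when hepatocytes lack NEK7, a kinase that the study places at complex II of the respiratory chain.

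The TCA cycle runs in the mitochondrial matrix and strips the carbon of acetyl-CoA to carbon dioxide, passing electrons to NADH and to the respiratory chain. Pyruvate dehydrogenase feeds the cycle with acetyl-CoA from pyruvate. In liver the same reactions also supply precursors of glucose, fatty acids and amino acids, so that carbon enters and leaves the cycle at several steps.

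Most of these transcripts were less abundant in Hom livers relative to the typical gene. With TMM scaling, which corrects for library composition, 6 of the 9 passed the test (adjusted p under 0.05) and were lower in Hom than in WT livers, namely Pdha1, Cs, Idh3b, Idh3g, Ogdh and Suclg1. They fell to between 58.8% (Idh3b) and 77.7% (Ogdh) of the WT mean. Among all 13805 genes tested, 20.1% were lower and 21.5% were higher. In bulk tissue, fewer cells of a type and less RNA per cell cannot be told apart, and the share of hepatocyte transcripts was itself lower in Hom livers, as given below. Fh1 and Mdh2 did not pass the test, nor did Idh3a, which was at 137% of the WT mean (adjusted p = 0.0787, edgeR's quasi-likelihood test). The size of each difference depended on the scaling between libraries, which is given below for each gene, whereas the balance between subunits of one enzyme did not.

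The estimated counts summed to between 19349418 and 19730236 per liver. Nek7 had 1036 to 1127 counts in the WT group and 310 to 439 in the Hom group. The TMM factors ran from 0.806 to 0.924 (WT) and from 1.09 to 1.23 (Hom). Hom replicate 1 had 0 counts of the Y-linked genes Ddx3y and Kdm5d, against at least 243 in each of the other livers, and 149 counts of Uty, also Y-linked, against 464 to 725. It also stood apart for some of the 9 genes. Their values are therefore given with and without it. Each of the 9 genes had at least 518 counts in every liver, so that counting error was small for all of them.

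The start regions of the genes were read from RefSeq promoter windows on GRCm38.p6, from 250 bases before to 50 bases after the annotated start, of which 8 of the 9 genes have at least 1; Idh3a has no entry in that table. The windows of 3 genes are shown because the paired subunit genes Idh3b and Idh3g fell together while Fh1 did not pass the test. Idh3b lies on the minus strand of chromosome 2 (chr2:130284402-130284701), Idh3g on the minus strand of the X chromosome (chrX:73786848-73787147) and Fh1 on the minus strand of chromosome 1 (chr1:175625586-175625885). The windows are written 5′ to 3′ on the strand of the gene, and capitals mark the letters of the motifs named after them.

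Idh3b: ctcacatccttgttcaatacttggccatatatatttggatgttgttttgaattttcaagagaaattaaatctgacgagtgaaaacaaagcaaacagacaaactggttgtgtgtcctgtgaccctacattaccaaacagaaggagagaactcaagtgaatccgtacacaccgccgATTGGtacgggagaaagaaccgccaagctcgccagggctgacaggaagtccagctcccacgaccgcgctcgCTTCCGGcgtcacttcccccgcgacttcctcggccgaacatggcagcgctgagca
Idh3g: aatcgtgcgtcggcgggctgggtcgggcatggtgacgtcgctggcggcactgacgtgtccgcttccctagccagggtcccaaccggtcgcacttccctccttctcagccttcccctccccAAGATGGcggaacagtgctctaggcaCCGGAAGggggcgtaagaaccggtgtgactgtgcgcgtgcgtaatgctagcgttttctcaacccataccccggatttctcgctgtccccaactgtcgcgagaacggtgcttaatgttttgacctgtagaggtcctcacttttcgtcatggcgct
Fh1: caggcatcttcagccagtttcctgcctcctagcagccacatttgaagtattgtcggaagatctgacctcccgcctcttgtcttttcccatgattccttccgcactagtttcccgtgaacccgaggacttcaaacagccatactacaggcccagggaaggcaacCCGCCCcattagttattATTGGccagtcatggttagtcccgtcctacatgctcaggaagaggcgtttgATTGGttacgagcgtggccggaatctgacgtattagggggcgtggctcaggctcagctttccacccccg

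A set of 6 short motifs were searched on both strands, none of which holds another. The ETS core CCGGAAG was in the windows of 2 of the 8 genes, Idh3b and Idh3g, and in 8.86% of all 32851 windows. The CCAAT box was in those of Cs, Idh3b, Ogdh and Fh1 (37.4% of all windows), and the SP1 core GGGCGG in those of Cs, Ogdh, Fh1 and Mdh2 (35.7%). Idh3g alone held the YY1 core AAGATGG (6.34%). The NRF1 core GCGCATGC (2.71%) and the ERR half-site AAGGTCA (4.72%) were found, among the 8 genes, only in Ogdh, which has 6 partly overlapping windows and so more room for a match. The windows of Pdha1 and Suclg1 held none of the 6. These are matches of letters, and binding was not measured.

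Pdha1 (NCBI Gene 18597), on the X chromosome, encodes the subunit of pyruvate dehydrogenase that decarboxylates pyruvate and that is switched off by phosphorylation. Its level was 115, 118 and 123 CPM (counts for each 1e6 in the library, scaled by TMM factors as all CPM here) in WT replicates 1, 2 and 3 and 81.7, 78.5 and 83.4 in the Hom livers. The groups did not overlap and each was narrow. The fitted log2 fold change was −0.55 (standard error 0.072, adjusted p = 0.00183, by the edgeR quasi-likelihood test and the Benjamini-Hochberg method, which gave each adjusted p of a fold change here). It was −0.55 without Hom replicate 1 as well.

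Cs (NCBI Gene 12974), on chromosome 10, encodes citrate synthase, which joins acetyl-CoA to oxaloacetate. It was at 178, 199 and 203 CPM in WT livers and at 107, 137 and 136 CPM in Hom livers. Hom replicate 1 was the lowest of the 6, and no Hom liver reached a WT liver. The log2 fold change was −0.61 (standard error 0.12, adjusted p = 0.00818), and −0.50 without that liver (adjusted p = 0.0104).

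Isocitrate dehydrogenase 3, the NAD-dependent enzyme that turns isocitrate into 2-oxoglutarate, is built from a catalytic alpha subunit (Idh3a), a beta subunit (Idh3b) and a regulatory gamma subunit (Idh3g). Idh3b (NCBI Gene 170718) was at 151, 161 and 166 CPM in WT livers and at 93.8, 92.7 and 94.6 CPM in Hom livers. Among the 9 genes it had the lowest fitted log2 fold change, −0.77 (standard error 0.077, adjusted p = 7.58e-04), and 8.38% of all genes tested had a lower one. Leaving out Hom replicate 1 gave −0.77 again.

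Idh3g (NCBI Gene 15929) was at 60.0, 69.8 and 68.1 CPM in WT livers and at 47.6, 45.4 and 45.5 CPM in Hom livers. Its log2 fold change was −0.52 (standard error 0.083, adjusted p = 0.00371), again with no overlap between the groups. Idh3g and Pdha1 are the X-linked genes of the set, and Idh3g was at −0.54 without Hom replicate 1.

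Idh3a (NCBI Gene 67834) ran the other way. It was at 32.2, 33.2 and 34.7 CPM in WT livers and at 59.2, 36.8 and 40.7 CPM in Hom livers. All 3 Hom livers were above all 3 WT livers, with Hom replicate 1 the highest. The log2 fold change was 0.45 (standard error 0.18, adjusted p = 0.0787), and without Hom replicate 1 it was 0.21 (adjusted p = 0.103). Without Hom replicate 2 it passed the test (0.58, adjusted p = 0.0453). With library size alone as the scaling the value was 0.89 (standard error 0.14, adjusted p = 0.00275).

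Ogdh (NCBI Gene 18293), on chromosome 11, encodes the E1 subunit of 2-oxoglutarate dehydrogenase, which yields succinyl-CoA. It was at 258, 284 and 276 CPM in WT livers and at 224, 204 and 208 CPM in Hom livers. The groups did not overlap, but the gap was small beside that of Idh3b. At −0.36 (log2 fold change, standard error 0.093, adjusted p = 0.0198) it was the smallest decrease among the 9 that passed. It lost the call when WT replicate 2 or 3, or Hom replicate 2 or 3, was left out (adjusted p from 0.0617 to 0.0723), and kept it without Hom replicate 1 (−0.41, adjusted p = 0.0194).

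Suclg1 (NCBI Gene 56451), on chromosome 6, encodes the alpha subunit of succinyl-CoA synthetase, which is common to the ATP-forming and the GTP-forming enzyme. It was at 146, 156 and 167 CPM in WT livers and at 97.6, 88.0 and 91.9 CPM in Hom livers. Its fall was close to that of Idh3b, at −0.76 on the log2 scale (standard error 0.088, adjusted p = 0.00123), and −0.80 without Hom replicate 1.

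Fh1 (NCBI Gene 14194) encodes fumarase, which hydrates fumarate to malate. It was at 161, 186 and 189 CPM in WT livers and at 252, 108 and 147 CPM in Hom livers. Hom replicate 1 was above every WT liver, and the other 2 Hom livers were below every WT liver. The log2 fold change was −0.08 (standard error 0.29, adjusted p = 0.838), and without Hom replicate 1 it was −0.49 (standard error 0.16, adjusted p = 0.0538).

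Mdh2 (NCBI Gene 17448), on chromosome 5, encodes the mitochondrial malate dehydrogenase that closes the cycle. It was at 204, 198 and 203 CPM in WT livers and at 210, 155 and 160 CPM in Hom livers. As with Fh1, Hom replicate 1 was the highest of all livers. The log2 fold change was −0.20 (standard error 0.13, adjusted p = 0.247). Without Hom replicate 1 it was −0.36 (standard error 0.079, adjusted p = 0.0177). Leaving that liver out therefore brought the count of lower genes to 7 of 9, when 18.1% of all genes tested were lower and 19.2% higher.

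**Figure D1:**
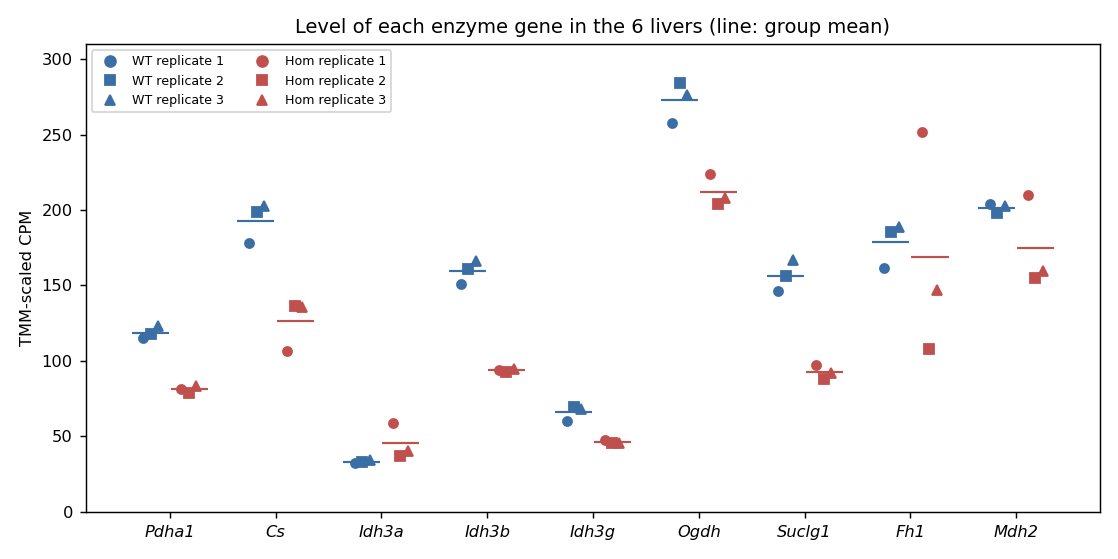
TMM-scaled CPM (vertical axis, linear from 0) of the 9 genes in each liver, WT in blue and Hom in red, with marker shapes for the replicate numbers and a line at each group mean. The Hom livers lie below the WT livers for 6 genes, Idh3a lies above, and Hom replicate 1 stands over the other Hom livers for Idh3a, Fh1 and Mdh2.

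The median of the 9 log2 fold changes was −0.52, with a range from −0.77 to 0.45, while the median of all genes tested was −0.0018. In TMM-scaled CPM the groups did not overlap for 7 of the 9 genes, 6 lower and 1 higher, and this held for 27.0% (lower) and 28.7% (higher) of all genes tested. By the sum of the 9 genes, WT livers were at 1306 to 1430 CPM and Hom livers at 944 to 1172 CPM. With library size alone these sums were 1131 to 1206 CPM and 1165 to 1273 CPM, and the ranges overlapped. On that scale the groups did not overlap for 2 genes that were lower in Hom livers (Idh3b and Suclg1) and for 3 that were higher (Idh3a, Ogdh and Mdh2), against 6.51% and 56.3% of all genes tested.

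How far these transcripts fell depended on the reference. Scaling by library size alone moved the median of all genes tested from −0.0018 to 0.45 and that of the 9 genes from −0.52 to −0.06. Under this scaling Idh3b (−0.31, adjusted p = 0.0287) and Suclg1 (−0.30, adjusted p = 0.0241) were still lower and Idh3a was higher, when 4.65% of all genes were lower and 47.6% higher. Pdha1 (−0.09), Cs (−0.14) and Idh3g (−0.06) no longer passed the test, and Ogdh (0.09), Fh1 (0.35) and Mdh2 (0.24) changed sign without passing it. Under both scalings the fold change of each of the 9 genes except Idh3a lay below the median of all genes.

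The livers also differed in their cell type markers. Of 29 hepatocyte marker genes tested, 17 were lower and 1 was higher in Hom livers (median log2 fold change −0.67), and their summed level was between 210151 and 246378 CPM (WT) and between 105756 and 153211 CPM (Hom). Alb, the most counted of them, was at −1.26 (standard error 0.27, adjusted p = 0.00991). Of 10 cholangiocyte markers 9 were higher (median 3.02; summed level 71.3 to 105 CPM against 632 to 892 CPM). Of 14 stellate cell and fibroblast markers 8 were higher and 1 lower (median 1.51; 384 to 454 CPM against 783 to 868 CPM). Macrophage markers (12 genes, 4 higher and 2 lower, median 0.44; 244 to 611 CPM against 407 to 518 CPM) and lymphocyte markers (7 of 10 tested, 2 higher, median 1.00; 10.8 to 24.2 CPM against 25.2 to 45.1 CPM) were also tested. Endothelial markers had 6 of 11 lower (median −0.54; 308 to 413 CPM against 244 to 249 CPM). Of all genes tested, 20.1% were lower and 21.5% higher. No marker on these lists was at 0 in all livers. With TMM scaling, all of these summed levels except that of the macrophage markers differed between the groups without overlap. With library size alone the endothelial sums overlapped as well, at 258 to 382 CPM (WT) and 266 to 301 CPM (Hom). The part of these cell types in the falls above was not tested.

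When the libraries were instead scaled to the summed hepatocyte markers, the median of all genes rose to 0.89 and that of the 9 genes to 0.38. Idh3a (1.30, adjusted p = 9.6e-05), Fh1 (0.74, adjusted p = 0.0113), Mdh2 (0.67, adjusted p = 0.00901) and Ogdh (0.53, adjusted p = 0.0363) were then higher. Idh3b (0.13) and Suclg1 (0.13) had the smallest values. The other 5 genes did not pass the test in either direction, when 73.7% of all genes were higher and 1.74% lower. The marker sum is weighted towards Alb, which itself fell further than any of the 9 genes.

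**Figure D2:**
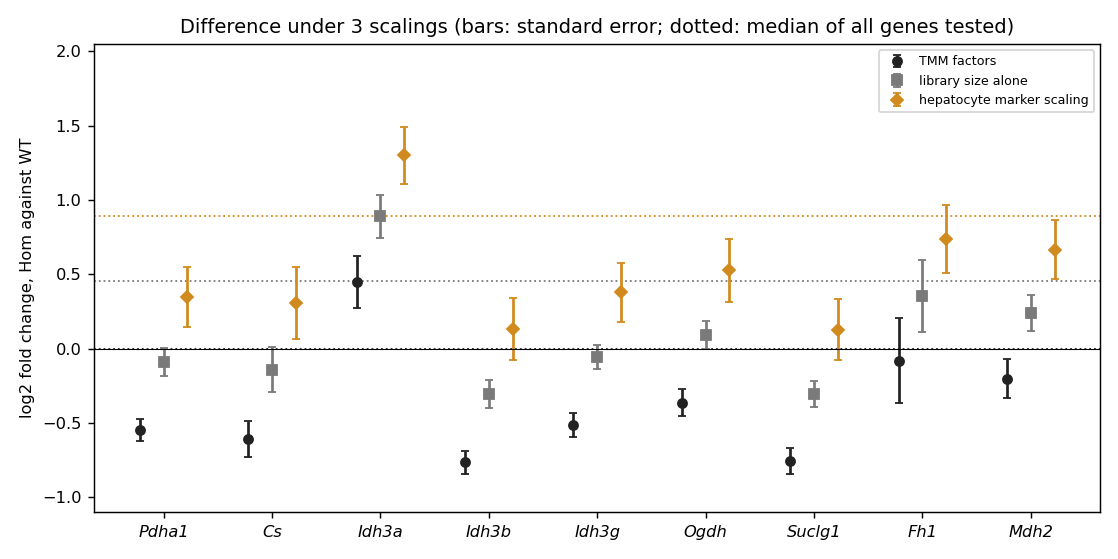
Log2 fold change of each gene, Hom against WT (vertical axis), fitted with TMM factors (black), with library size alone (grey) and with scaling to hepatocyte markers (orange); bars are standard errors and dotted lines the median of all genes tested, at −0.0018, 0.45 and 0.89. The order of the genes is alike under the 3 scalings, with Idh3b and Suclg1 lowest and Idh3a highest, while the position of zero moves.

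A ratio of 2 genes inside one liver is free of the scaling between libraries, and 11 such ratios were compared. For the counts of Idh3b over Idh3a, the log2 ratio was 2.23, 2.27 and 2.26 in WT livers and 0.66, 1.33 and 1.22 in Hom livers. The WT livers were nearly equal, and every Hom liver was far below them. The difference of the means was −1.18, so that the Hom ratio was 0.44 times the WT ratio. With 3 livers against 3 the exact two-sided permutation test cannot give less than p = 0.1, which is the value here (0.11 after Benjamini-Hochberg adjustment over the 11 ratios). With 1 liver left out at a time the difference stayed between −1.31 and −0.98.

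Idh3g over Idh3a moved alike, from a mean log2 ratio of 0.98 ± 0.085 (SD, n = 3) in WT to 0.05 ± 0.33 (SD, n = 3) in Hom livers. Idh3b over Idh3g differed less, by −0.25. On the TPM scale, which divides by gene length and so lets genes be compared, Idh3a made up 8.33%, 7.90% and 8.10% of the 3 subunit transcripts in WT livers. In Hom livers its share was 19.9%, 13.7% and 14.7%, with no overlap. The share of Idh3b went from 62.4% ± 0.78 (SD, n = 3) to 53.6% ± 2.6 (SD, n = 3), and that of Idh3g was 29.5% ± 0.99 and 30.3% ± 0.82 (SD, n = 3 each).

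**Figure D3:**
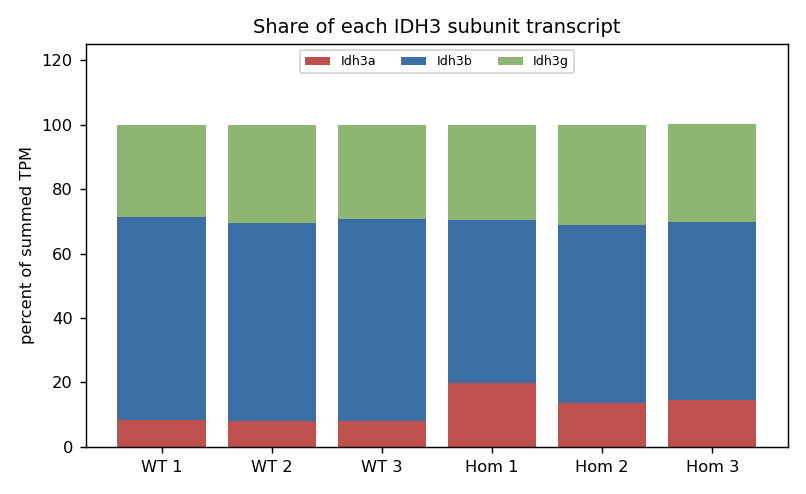
Percent of the summed TPM of Idh3a, Idh3b and Idh3g (vertical axis) taken by each subunit transcript in the 6 livers. The Idh3a part lies between 7.90% and 8.33% (WT) and between 13.7% and 19.9% (Hom).

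Among partners in the other complexes the shifts were smaller than those of Idh3b and Idh3g against Idh3a. Suclg1 over its beta partners was lower in each Hom liver, by −0.16 on the log2 scale against the ATP-forming Sucla2 and by −0.32 against the GTP-forming Suclg2. Pdha1 over Pdhb, the beta subunit of the same E1 enzyme, differed by 0.17, with WT replicate 1 (0.11) just under Hom replicate 1 (0.13). Ogdh over Dlst, the E2 subunit of its complex, overlapped between the groups (difference 0.07, exact permutation p = 0.7).

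Ratios to a counterpart enzyme or to a neighbouring step also differed. Mdh2 over its cytosolic counterpart Mdh1 was 1.44 times as high in Hom as in WT livers (log2 ratios −1.31, −1.50 and −1.47 against −0.75, −0.98 and −0.97). Idh3a over Idh2, the NADP-dependent mitochondrial enzyme, differed by 0.60. Fh1 over Sdha, the preceding enzyme, was at 0.03 in Hom replicate 1 and at −1.25 and −0.89 in the other Hom livers, against −1.41 to −1.33 in WT livers. Without Hom replicate 1 both differences were smaller, at 0.33 for Idh3a over Idh2 and 0.30 for Fh1 over Sdha. Of the 11 ratios, 10 had no overlap between the groups, and each of these had the smallest p that the exact permutation test allows (p = 0.1, adjusted 0.11). Single genes often had no overlap too, 27.0% of all tested being lower and 28.7% higher in TMM-scaled CPM. The share among ratios of other gene pairs was not computed, so the count of ratios has no reference.

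**Figure D4:**
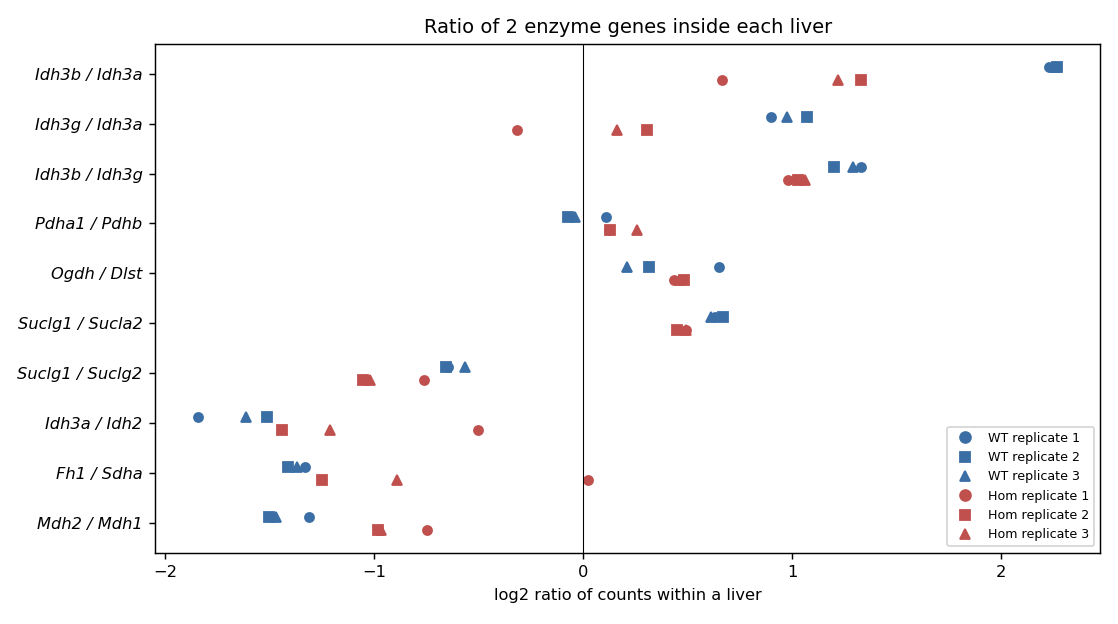
Log2 ratio of the counts of 2 genes inside each liver (horizontal axis) for 10 of the 11 ratios, WT in blue and Hom in red, with marker shapes for replicate numbers. The Idh3b and Idh3g ratios to Idh3a show the widest gaps, and Hom replicate 1 lies far from the other Hom livers for the ratios with Idh3a and Fh1.

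In WT livers the transcripts ranked, by mean TPM, from Mdh2 (236 ± 29.8, SD, n = 3) through Suclg1, Fh1 and Idh3b (168, 162 and 157, with overlapping ranges) to Cs (99.0), Ogdh (88.9), Idh3g (74.0), Pdha1 (60.9) and Idh3a (20.4 ± 1.73). Apart from the overlaps among Suclg1, Fh1 and Idh3b, neighbours in this order did not overlap. In Hom livers Mdh2 was again first (312 ± 30.4, SD, n = 3) and Idh3a last (42.3 ± 7.86, SD, n = 3). Fh1 then overlapped with Mdh2 (160 to 324 TPM), and Ogdh with Cs and Cs with Idh3g. TPM values are scaled to the same total in each liver, so these levels follow the library-size view and not the TMM view.

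The other 14 subunits and enzymes of the same steps had log2 fold changes with a median of −0.52, as the 9 genes did. Of these, 9 were lower with TMM scaling: Pdhb, Dlat and Pdhx of pyruvate dehydrogenase, Sucla2 and Suclg2 of succinyl-CoA synthetase, and the 4 succinate dehydrogenase genes. With this scaling 20.1% of all genes tested were lower and 21.5% higher. Sdha, the flavin-bearing subunit, had the lowest value (−0.84, standard error 0.12, adjusted p = 0.00229), and Suclg2 the smallest decrease that passed (−0.43, standard error 0.092, adjusted p = 0.0102). Dld (−0.25), the E3 subunit shared by the 2-oxo acid dehydrogenases, did not pass the test, nor did Dlst (−0.45, adjusted p = 0.0522), Idh2 (−0.18) and Mrps36 (−0.12). With library size alone 4 of the 14 were lower, namely Pdhb, Sdha, Sdhb and Sdhd, when 4.65% of all genes tested were lower.

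Pyruvate dehydrogenase is switched off by kinases that phosphorylate Pdha1 and switched on by phosphatases, and these regulators did not move together. Pdk1, a kinase, was at 60.9 ± 5.87 CPM in WT and 24.5 ± 6.40 CPM in Hom livers (SD, n = 3), and fell by 1.31 on the log2 scale (standard error 0.20, adjusted p = 0.00285). Pdp2, a phosphatase, fell by 0.90 (adjusted p = 0.00277) and Pdpr, a regulatory subunit of the phosphatase, fell by 0.36 (adjusted p = 0.0280). Pdp1, the other phosphatase, rose from 30, 14 and 11 counts to 107, 90 and 88 counts (log2 fold change 1.93, standard error 0.36, adjusted p = 0.00624). The falls of Pdk1 and Pdp2 and the rise of Pdp1 also passed the test with library size alone. Pdk3 passed as higher on that scale (1.49, adjusted p = 0.0155), when 47.6% of all genes tested were higher and 4.65% lower. Pdk2 (−0.21), Pdk4 (−0.30) and Pdk3 (1.04, adjusted p = 0.0561) did not pass with TMM scaling.

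Lipoic acid is bound to the E2 subunits of pyruvate and 2-oxoglutarate dehydrogenase, and iron-sulfur clusters are needed to make it. Of 9 genes on this list, 6 were lower (Mcat, Fdx1, Iscu, Nfu1, Lias and Nfs1, from −0.67 to −0.34), against 20.1% of all genes tested. Lipt2, the first transferase of the lipoate pathway, rose from 42, 30 and 26 counts to 149, 130 and 91 counts (log2 fold change 1.46, standard error 0.28, adjusted p = 0.00669). It passed the test with library size alone (adjusted p = 0.00207), whereas the 6 lower genes did not. On that scale 47.6% of all genes tested were higher and 4.65% lower, so a rise keeps its call more readily than a fall.

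Genes of mitochondrial pyruvate entry and carbon exchange differed in both directions, and 2 of them did not pass the test. Of 10 genes, 5 were lower: both pyruvate carrier genes Mpc1 (−0.50) and Mpc2 (−0.51), Me3 (−0.73), Glud1 (−0.73), which turns glutamate into 2-oxoglutarate, and Got2 (−0.80), the mitochondrial aspartate aminotransferase. Another 3 were higher, among them Pck2 and Me2. Over all genes tested the shares were 20.1% lower and 21.5% higher. Pck2, the mitochondrial phosphoenolpyruvate carboxykinase, was at 1.36 (adjusted p = 0.00333) and Me2, a malic enzyme, at 0.91 (adjusted p = 0.0373). Both had low counts. Pck2 went from 70, 39 and 41 counts in WT livers to 162, 195 and 172 in Hom livers. Me2 went from 70, 44 and 30 counts to 106, 143 and 123. Gls2, the liver-type glutaminase, did not pass the test (−0.44, standard error 0.34). It had 8770 counts in Hom replicate 1 against 4012 and 4387 in the other Hom livers. Pcx, pyruvate carboxylase, was at −0.31 (adjusted p = 0.0616).

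Of the 8 cytosolic counterparts 5 were lower (median of the list −0.58): Pck1 (−0.99), Mdh1 (−0.75), Ldha (−0.66), Idh1 (−0.51) and Aco1 (−0.42). The share of all genes tested that were lower was 20.1%. Got1, the cytosolic aspartate aminotransferase, had 8872 counts in Hom replicate 1 and 4903 and 4852 in the other Hom livers, a pattern like that of Fh1. Its log2 fold change was −0.10 (adjusted p = 0.805). Without Hom replicate 1, Got1 (−0.52, adjusted p = 0.0247) and Gls2 (−0.96, adjusted p = 0.00467) passed the test as lower. In the same fit Nfs1, Me2, Me3 and Aco1 no longer passed it (adjusted p = 0.0971, 0.0607, 0.0545 and 0.0587). The tissue-restricted relatives were near absent: Ogdhl had at most 5 counts and Csl at most 1 count in any liver, and neither was tested.

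**Figure D5:**
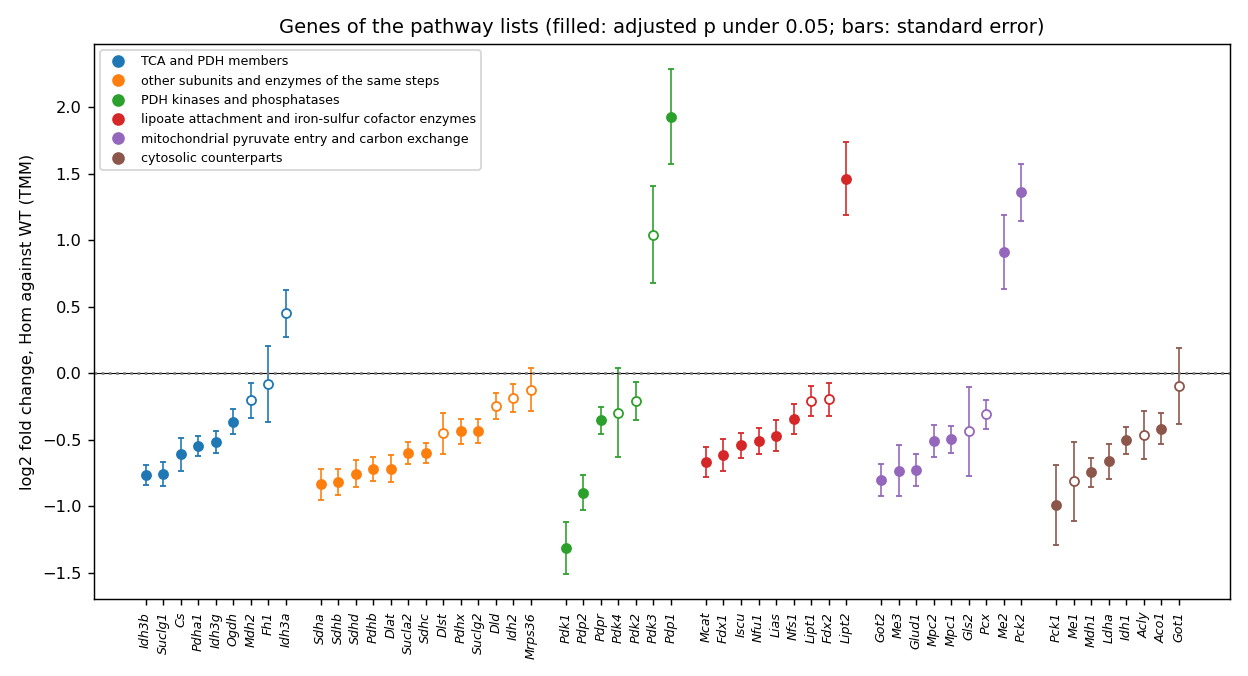
Log2 fold change with TMM scaling (vertical axis; bars are standard errors) of the 9 genes and genes of the 5 pathway lists, each sorted by value, with filled circles for an adjusted p under 0.05. Filled circles below zero outnumber those above zero in each list, and Pdp1, Lipt2, Pck2 and Me2 are filled circles above zero.

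The mean standardized profile of the 9 genes over the 6 livers was also compared with that of every other gene tested. Outside the lists, the highest Pearson correlations were those of 2310061I04Rik (0.998), Lrpprc, Proser2, Txn2 and Oaf (each 0.997), a description over 6 livers that share the genotype split and the scaling. Of the 9 genes themselves, Ogdh followed the mean profile most closely (0.98) and Idh3a ran against it (−0.35).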

How the data were processed

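RNA-seq was done on the DNBSEQ platform. The submitters' processing notes name HISAT2 2.0.4, Bowtie2 2.2.5, RSEM 1.2.12 and the build mm9, without roles, and the strandedness is not given in the sources used here. The authors deposited 1 table holding estimated counts (unscaled), TPM values (per gene length, to 1 total per liver) and FPKM values for each liver. The group mean columns carry crossed names in all 3 units and were not used. FPKM only gave the gene length behind the length correction.

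Rounded counts were fitted with edgeR 4.0.16 (R 4.3.3), using filterByExpr, TMM factors and the quasi-likelihood test, with Benjamini-Hochberg adjustment over 13805 genes and an adjusted p under 0.05, without a minimum fold change. Standard errors come from the fold change and the F statistic. Ratios within a liver were compared by the exact two-sided permutation test (scipy 1.17.1). Depth was nearly equal between livers.

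The 9 genes and all lists were chosen with earlier results of these data known. Named were the 9 genes, Nek7, genes of the pathway lists, at most 3 markers of each cell type list, Y-linked genes as a check, and the 5 genes with the most similar profile. The alternatives were DESeq2 1.42.0, library size alone, upper-quartile factors, scaling by the summed counts of the hepatocyte markers, 2 other filters, a loess correction for gene length, leaving out each liver, a block for the replicate number, a log2 fold change of at least 1, and TPM for ratios. Some genes and 1 ratio that enter the counts are not reported here. The fit was tested on simulated data. Livers of one group were distinct libraries: chi-square divided by its degrees of freedom was at least 22.3 for each such pair. The methods describe 1 liver per mouse.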

Additional observations from a re-analysis of the deposited data

How the results depend on the processing

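Library size alone gave 642 lower and 6574 higher genes, 2 lower and 1 higher of the 9, 4 lower of the 14 genes of the same steps, and 8 lower over all pathway lists (28 with TMM factors), and moved the median of the 9 to −0.056. Under it Ogdh (0.092), Fh1 (0.35) and Mdh2 (0.24) were reversed. Hepatocyte marker scaling gave 240 lower and 10174 higher genes, 4 higher of the 9, 0 lower of the 9, of the 14 and over all lists (each also 0 at an unadjusted p under 0.05, edgeR), 17 over all lists higher, and a median of 0.38. It reversed Pdha1 (0.35), Cs (0.31), Idh3b (0.13), Idh3g (0.38), Ogdh (0.53), Suclg1 (0.13), Fh1 (0.74) and Mdh2 (0.67). These shifts follow from the scaling, which moves all genes alike. Upper-quartile factors gave 2060 lower and 3477 higher genes, 1 higher of the 9 (Idh3a), a median of −0.42 and Fh1 at 0.0081. The length correction gave a median of −0.39 and Fh1 at 0.044. A log2 fold change of at least 1 left 575 lower and 1825 higher genes, 0 lower of the 9 and of the 14, and 1 over all lists (Pdk1).

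With 1 liver left out, 1767 to 2750 genes were lower and 1986 to 3057 higher, and 5 to 7 of the 9 were lower and 0 to 1 higher. Fh1 was then at −0.49 to 0.16 and the log2 ratio of Ogdh to Dlst differed by −0.023 to 0.20. DESeq2, like edgeR, called 6 of the 9 lower and 0 higher, when it called 2863 of all genes lower and 3076 higher. At an unadjusted p under 0.05 1 of the 9 was higher (Idh3a, edgeR), when 3426 of the 13805 genes were lower and 3665 higher. With the replicate block 2214 genes were lower and 5 of the 9, Ogdh being lost (adjusted p = 0.0553); same-numbered livers are different mice whose deviations correlated at −0.109, −0.0563 and −0.0494. Of 126 comparisons of single genes with an alternative 98 kept direction and call, 8 lost and 5 gained the call and 15 were reversed. With 3 livers a group, no ratio can pass the exact test, and the causes of the other changes were not tested.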
